A study of Arabidopsis thaliana with 18 samples.

Results

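By mean level, 55 of the 33602 genes in the count table were transcribed in Arabidopsis seedlings of the line arp6, mutated in ARP6, and silent in the wild type. These 55 were taken as nuclear genes (identifiers from AT1G to AT5G) with a mean above 2 CPM (counts of a gene scaled by the total of its library) in the 3 arp6 libraries and a mean below 0.3 CPM in the 3 Col-0 libraries. They make up 0.165% of the 33323 nuclear genes. They were thus selected on their levels in arp6 and in Col-0, and those levels are given as a description with no test. Silent means below the threshold: 17 of the 55 had no count in Col-0, and the other 38 had at most 7 counts over the 3 Col-0 libraries together.

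The data are RNA-seq of whole seedlings that were 14 days old and had been kept at 22 °C in long days (16 h light, 8 h dark), with 3 libraries for each of 6 genotypes. The lines were atchz1ab arp6, which joins the atchz1ab mutations with the allele arp6-1; arp6, with arp6-1 only; atchz1ab hta9hta11, which joins atchz1ab with hta9-1 and hta11-2; hta9hta11, with hta9-1 and hta11-2; atchz1ab, mutated in both AtChz1 genes by alleles that the labels do not name; and Col-0, the wild-type ecotype. The labels do not say whether replicates were separate plantings, so the p-values measure the spread between these libraries, which may be technical. Total counts ran from 7163359 to 10744318 per library.

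H2A.Z is a variant of histone H2A that sits in nucleosomes near the start of genes and is known for its part in the control of flowering and of genes that respond to the environment. The SWR1 complex exchanges H2A for H2A.Z, and ARP6, an actin-related protein, is a subunit of it. H2A.Z itself is the product of HTA9, HTA11 and related genes, and AtChz1 proteins are named after Chz1, a histone chaperone that carries H2A.Z in yeast. The arp6-1 allele thus bears on the deposition of H2A.Z, and hta9-1 with hta11-2 on its supply. Many of the loci that stay silent in a wild-type seedling are retroelements, decayed genes or genes of flowers and seeds.

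The labels of the arp6 and hta9hta11 lines were checked against the mutated genes, and the atchz1ab mutations were not checked here, since the labels give no identifier of an AtChz1 gene. ARP6 (AT3G33520) had 1, 0 and 0 counts in atchz1ab arp6 and 0, 0 and 0 in arp6, against 704 to 761 counts over 3 libraries in each of the other genotypes. HTA11 (AT3G54560) had 23 counts in atchz1ab hta9hta11 and 23 in hta9hta11, against 500 in atchz1ab and 499 in Col-0. HTA9 (AT1G52740) was at 40.2 ± 2.8 CPM in atchz1ab hta9hta11 and 43.3 ± 1.7 in hta9hta11, against 96.7 ± 4.0 in atchz1ab and 95.3 ± 5.8 in Col-0 (SD, n = 3 each). Green-tissue genes were abundant in every genotype, with RBCS1A, the small subunit of Rubisco, at means from 10660 to 12622 CPM. In bulk samples, fewer cells that transcribe a gene and less RNA per cell cannot be told apart.

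Upstream DNA is shown for 5 of the most abundant loci, since the first 3 of them carried 53.0% of the signal of the 55 in arp6, and for the retrotransposon EVD, which was high in arp6 and not in atchz1ab arp6. Each line holds the 250 bases before the annotated start, read 5′ to 3′ on the strand of the gene from the RefSeq assembly TAIR10.1, whose chromosomes are those of TAIR10. Capitals mark TATAAA or TTGACC on either strand, so that a match on the opposite strand reads TTTATA or GGTCAA.
AT2G05914 (chr2:2264544-2264793, minus strand): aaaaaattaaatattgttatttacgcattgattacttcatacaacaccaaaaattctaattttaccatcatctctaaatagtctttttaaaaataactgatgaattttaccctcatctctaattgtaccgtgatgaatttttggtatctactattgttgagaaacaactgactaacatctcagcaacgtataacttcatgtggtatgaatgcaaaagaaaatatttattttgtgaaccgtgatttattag
AT1G03106 (chr1:749035-749284, minus strand): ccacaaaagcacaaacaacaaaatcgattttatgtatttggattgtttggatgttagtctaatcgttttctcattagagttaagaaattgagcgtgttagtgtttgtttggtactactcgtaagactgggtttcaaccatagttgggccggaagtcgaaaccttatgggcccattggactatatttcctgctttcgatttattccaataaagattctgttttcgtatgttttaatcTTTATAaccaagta
MRD1 (chr1:19964713-19964962, minus strand): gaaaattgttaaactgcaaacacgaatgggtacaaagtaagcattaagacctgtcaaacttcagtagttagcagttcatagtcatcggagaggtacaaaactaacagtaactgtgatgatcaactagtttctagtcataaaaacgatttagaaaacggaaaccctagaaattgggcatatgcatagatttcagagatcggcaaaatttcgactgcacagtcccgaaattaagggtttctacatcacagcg
AT3G62475 (chr3:23108850-23109099, plus strand): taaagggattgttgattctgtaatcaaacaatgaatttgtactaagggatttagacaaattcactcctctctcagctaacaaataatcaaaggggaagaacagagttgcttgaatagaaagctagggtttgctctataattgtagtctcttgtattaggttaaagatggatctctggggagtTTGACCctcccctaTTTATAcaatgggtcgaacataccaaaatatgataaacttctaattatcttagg
SADHU6-1 (chr3:525120-525369, plus strand): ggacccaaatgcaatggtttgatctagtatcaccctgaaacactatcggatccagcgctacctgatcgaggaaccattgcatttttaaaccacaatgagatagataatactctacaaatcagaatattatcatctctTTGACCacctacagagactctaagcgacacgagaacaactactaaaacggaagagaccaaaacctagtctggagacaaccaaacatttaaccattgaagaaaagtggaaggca
EVD (chr5:5630288-5630537, plus strand): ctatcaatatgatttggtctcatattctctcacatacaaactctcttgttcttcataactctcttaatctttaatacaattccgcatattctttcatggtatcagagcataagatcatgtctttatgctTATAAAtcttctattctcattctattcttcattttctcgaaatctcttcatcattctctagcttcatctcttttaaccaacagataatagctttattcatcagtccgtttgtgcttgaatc
The bases upstream of AT2G05914 and MRD1 held neither motif, those of AT1G03106 and EVD held TATAAA, those of SADHU6-1 held TTGACC, and those of AT3G62475 held both. The annotated start of a pseudogene need not be where its RNA begins, so these windows are the DNA before the annotation, not measured promoters.

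The 55 genes together summed to 541 to 551 CPM in the atchz1ab arp6 libraries and 615 to 637 CPM in the arp6 libraries. The sums were 20.01 to 26.4 CPM in atchz1ab hta9hta11, 20.1 to 22.0 in hta9hta11, 15.6 to 29.8 in atchz1ab and 4.79 to 6.44 in Col-0. Among the 12 libraries that did not choose the genes, those of atchz1ab arp6 thus lay far above the others. In the highest atchz1ab library, 15.4 of the 29.8 CPM came from AT1G18020. By the means of each genotype, 33 of the 55 genes were above 2 CPM in atchz1ab arp6, 15 were between the thresholds and 7 were below 0.3 CPM. In atchz1ab hta9hta11 1 gene was above 2 CPM and 30 were below 0.3, in hta9hta11 the numbers were 1 and 31, and in atchz1ab they were 1 and 36. The gene above 2 CPM in both hta9hta11 lines was AGO9, and the one in atchz1ab was AT1G18020, through a single library.

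**Figure D1:**
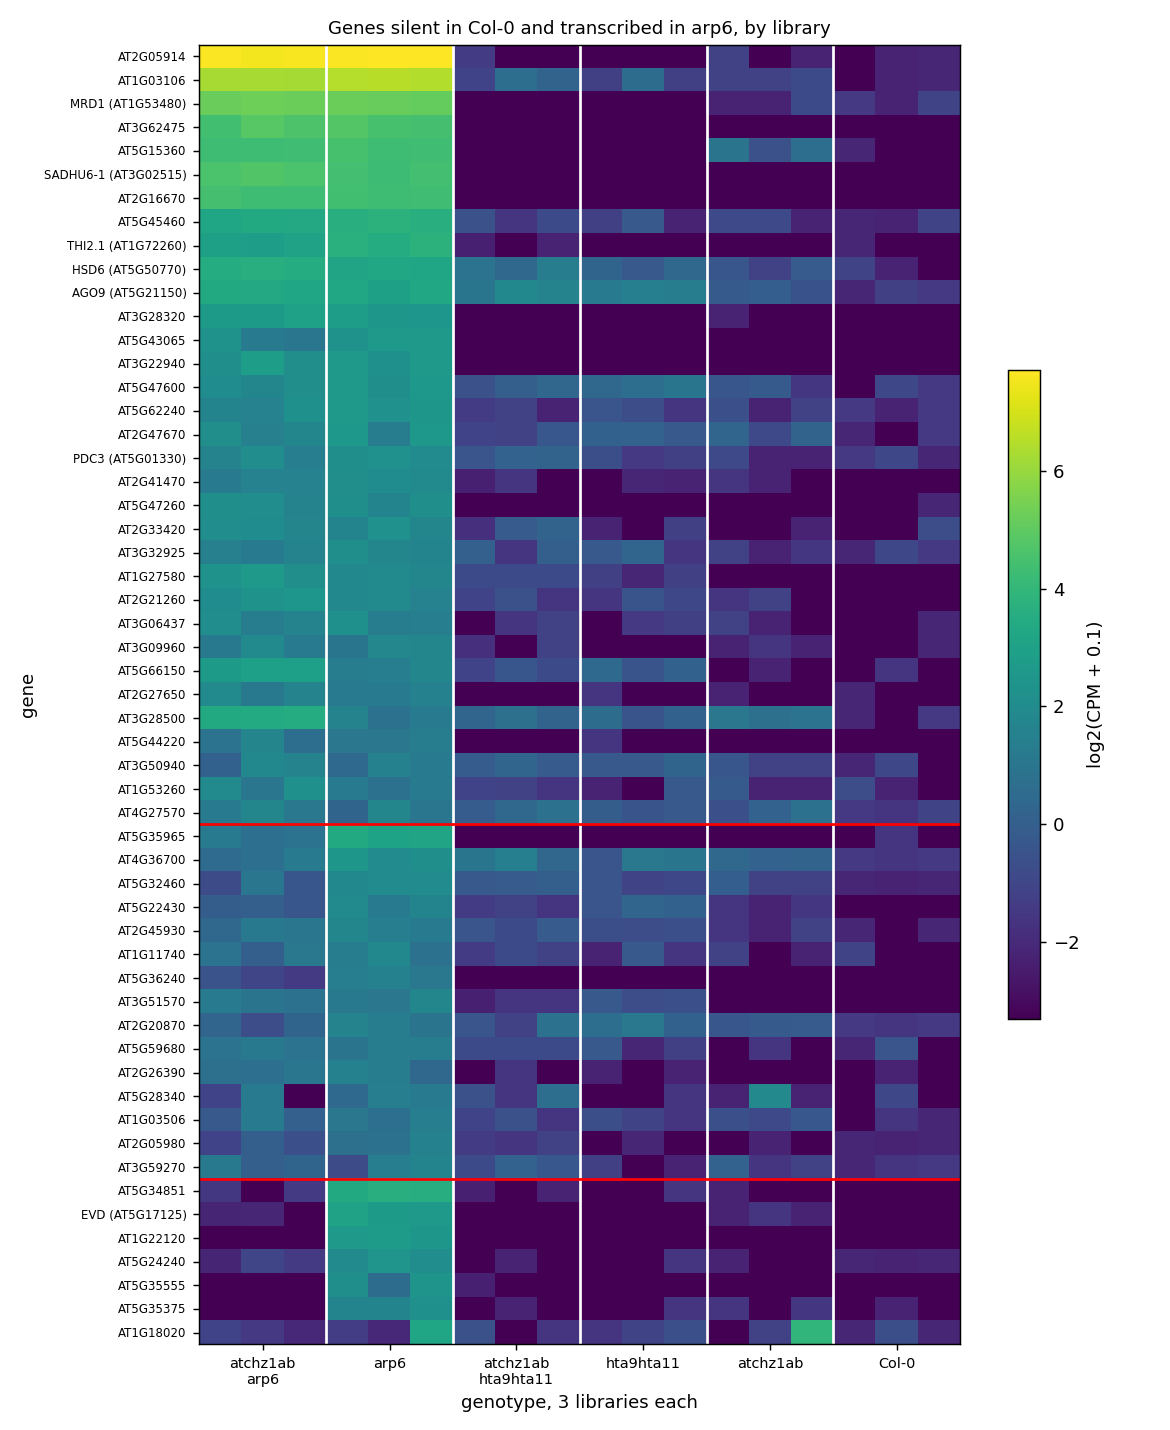
Level of each of the 55 genes (rows) in each of the 18 libraries (columns, 3 per genotype), as log2(CPM + 0.1). Red lines separate the 33 genes above 2 CPM in atchz1ab arp6, the 15 between the thresholds and the 7 below 0.3 CPM, and the bright cells lie almost wholly in the 6 libraries with arp6-1.

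**Figure D2:**
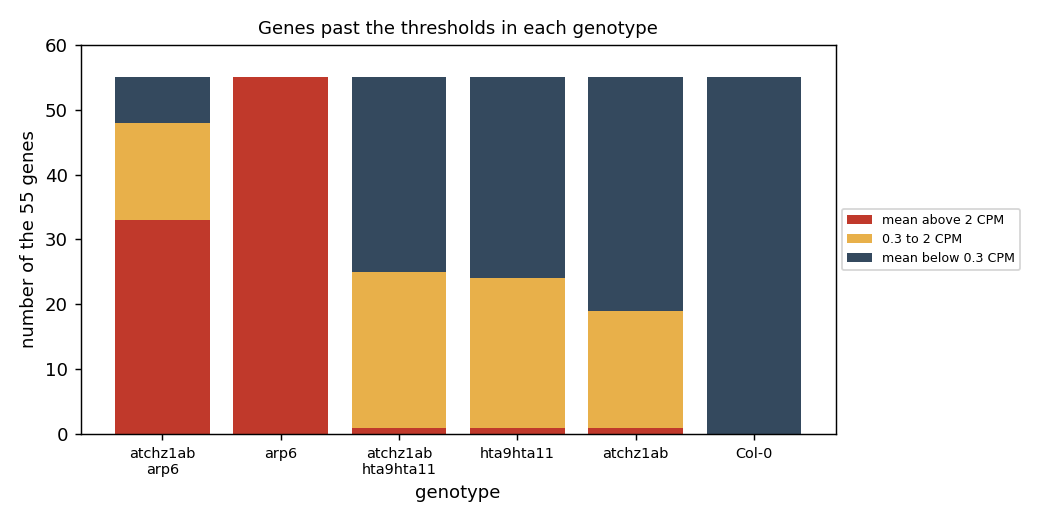
Number of the 55 genes with a mean above 2 CPM, from 0.3 to 2 CPM and below 0.3 CPM in each genotype. All 55 are above 2 in arp6 and below 0.3 in Col-0 by the way they were chosen, 33 are above 2 in atchz1ab arp6, and 1 in each of the 3 other mutant lines.

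Signal was concentrated in a few loci. AT2G05914, a long noncoding RNA, made up 32.8% of the 55 genes' mean CPM in arp6, and the 3 most abundant genes made up 53.0%. It had 204, 187 and 193 CPM in atchz1ab arp6 and 199, 207 and 211 in arp6. The same RNA had 0.279, 0 and 0 CPM in atchz1ab hta9hta11, 0, 0 and 0 in hta9hta11, 0.335, 0 and 0.116 in atchz1ab and 0, 0.107 and 0.128 in Col-0. All 6 libraries with arp6-1 were high and the other 12 were near or at 0. Per kilobase of annotated exon its mean level was 137 CPM in atchz1ab arp6 and 145 CPM in arp6, the highest of the 55, and the lowest in arp6 was 0.489 CPM per kilobase, for the pseudogene AT2G05980. AT2G05914 covers 450 bases opposite AT2G05915, which averaged 0.683 CPM in atchz1ab arp6 and 0.632 in arp6 and was at 0 in the other 4 genotypes. The sources do not state whether counting used strand, so reads of overlapping genes cannot be told apart.

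AT1G03106, a protein-coding gene of no annotated function, had 77.0, 78.4 and 76.1 CPM in atchz1ab arp6 and 90.4, 92.7 and 88.2 in arp6, against 0.335, 0.335 and 0.462 in atchz1ab and 0, 0.107 and 0.128 in Col-0. MRD1, named for its lower RNA level in the methionine-overaccumulating mutant mto1, had 37.0, 38.8 and 37.7 CPM in atchz1ab arp6 and 37.5, 36.0 and 34.5 in arp6, against 0.112, 0.112 and 0.462 in atchz1ab and 0.252, 0.107 and 0.384 in Col-0. It was at 0 in all 6 libraries of atchz1ab hta9hta11 and hta9hta11, below its few counts in atchz1ab. MRD1 shares 1446 of its 1666 bases with HEI10 (AT1G53490), a gene of meiotic crossover formation on the opposite strand. HEI10 averaged 4.54 CPM in atchz1ab arp6 and 5.03 in arp6, against 1.39 in atchz1ab and 1.39 in Col-0, so its mean was also higher in the lines where MRD1 was high.

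The 12 libraries that did not choose the genes allow tests. Adding the arp6-1 allele to atchz1ab asks whether the same genes are transcribed when ARP6 is lost in another background. In atchz1ab arp6 against atchz1ab, 44 of the 55 genes were called higher, 0 lower, 10 were not called and 1, AT1G18020, was not tested, by edgeR's quasi-likelihood test with p-values adjusted after Benjamini and Hochberg over 18906 genes and a threshold of 0.05. Over all genes tested, 22.2% were called higher and 22.6% lower. The median log2 fold change of the 54 tested was 4.04, and 3.94 with genes of 3 counts or fewer at their bound or ratio, against -0.0068 over all genes tested. Of the 44, 43 had all 3 atchz1ab arp6 libraries above all 3 atchz1ab libraries, and the exception was AT3G59270. Genes at or near 0 in atchz1ab could pass the filter on low counts only through lines where they were high, atchz1ab arp6 among them. These counts and medians, and the adjusted p-values of such genes given below, describe the genes that passed and are no independent support. The same limit holds for a fit without arp6 and Col-0, where 40 of the 55 passed the filter and 37 of these were called higher.

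**Figure D3:**
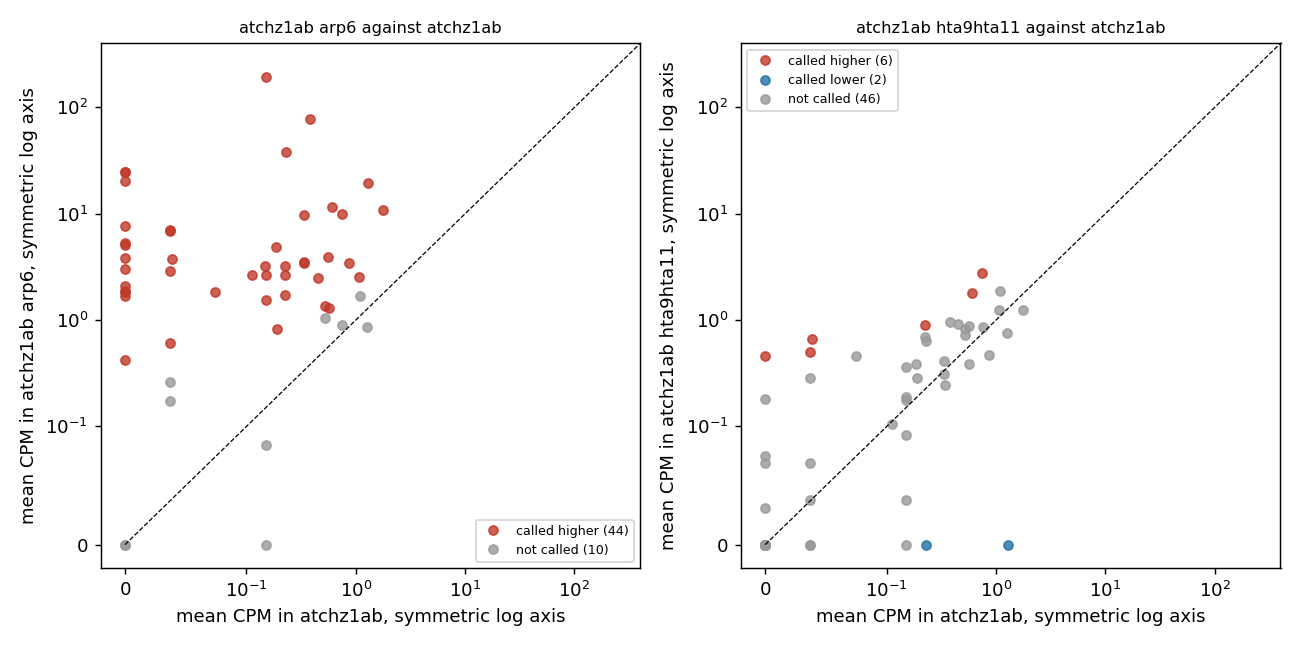
Mean CPM of the 54 tested genes in atchz1ab arp6 (left) and in atchz1ab hta9hta11 (right) on the vertical axis against atchz1ab on the horizontal axis, both on symmetric log axes that are linear near 0. The 44 genes called higher on the left stand above the dashed line of equality, while on the right 6 were called higher, 2 lower and 46 were not called.

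Pseudogenes and retroelements made up 11 of the 55, and 8 of the 11 were called higher in atchz1ab arp6 against atchz1ab. Beside this and the counts by role below stand 44 of the 54 tested and 22.2% of all genes tested. Differences between roles were not tested. SADHU6-1 (AT3G02515) belongs to the Sadhu elements, nonautonomous retroelements of Arabidopsis. It had 23.9, 26.5 and 24.0 CPM in atchz1ab arp6 and 21.0, 18.7 and 21.3 in arp6, and no count in any of the 12 libraries of the other genotypes. Its level in atchz1ab arp6 was at least 219.7-fold higher than in atchz1ab (adjusted p = 4.63e-47 by edgeR), with the floor set at 3 counts over the group. The pseudogene AT3G62475 had 21.0, 28.7 and 24.5 CPM in atchz1ab arp6 and 27.0, 22.6 and 22.3 in arp6 and was likewise at 0 elsewhere, at least 219-fold higher than in atchz1ab (adjusted p = 1.61e-46). The pseudogene AT2G16670 had 21.7, 19.2 and 19.5 CPM in atchz1ab arp6 and 20.7, 19.7 and 20.4 in arp6, at least 179-fold higher than in atchz1ab (adjusted p = 2.21e-43). These 3 loci stood between 18.7 and 28.7 CPM in all 6 libraries with arp6-1 and had no read elsewhere. They thus passed the filter on low counts only through those 6 libraries. AT5G43065, the next pseudogene called, had 4.93, 2.21 and 1.90 CPM in atchz1ab arp6, at least 27.1-fold higher than its 0 counts in atchz1ab (adjusted p = 3.80e-13).

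In all, 7 of the 55 genes had no count in any of the 12 libraries of the lines with a working ARP6. Beside SADHU6-1, AT3G62475, AT2G16670 and AT5G43065 they were AT3G22940, AT5G36240 and AT1G22120. AT3G22940 encodes a protein of the F-box-associated family, whose members take part in protein ubiquitination, and had 4.44, 7.14 and 4.34 CPM in atchz1ab arp6 and 6.15, 4.61 and 6.26 in arp6. It was at least 47.0-fold higher in atchz1ab arp6 than in atchz1ab (adjusted p = 4.57e-19 by edgeR). A count of 0 over the 3 Col-0 libraries allows a level of up to 0.120 CPM, and one over the 3 atchz1ab libraries up to 0.113 CPM, for counting error only.

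The noncoding AT2G05914 had the smallest adjusted p of the group. Its log2 fold change was 10.27 in atchz1ab arp6 against atchz1ab, over 4 counts in atchz1ab, with an adjusted p of 2.55e-96 by edgeR. AT1G03106 was higher by 7.69 on the log2 scale over 10 counts in atchz1ab (adjusted p = 6.37e-73), and MRD1 by 7.37 over 6 counts (adjusted p = 1.69e-56). AT3G28320, of no annotated function, had 6.29, 6.36 and 8.00 CPM in atchz1ab arp6, against 0.112, 0 and 0 in atchz1ab, where it had 1 count. The ratio was 182, with a 95% counting interval from 32.2 to 7242. For all 4 the atchz1ab arp6 libraries lay far above the atchz1ab libraries with no overlap.

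Genes of defence and of cell-surface receptors formed a group of 4, and all 4 were called higher. THI2.1 (AT1G72260) encodes a thionin, a small antimicrobial peptide that responds to jasmonate. It had 7.65, 7.14 and 8.14 CPM in atchz1ab arp6 and 12.8, 11.4 and 13.4 in arp6, against 0, 0 and 0 in atchz1ab and 0.126, 0 and 0 in Col-0. The level in atchz1ab arp6 was at least 67.6-fold higher than in atchz1ab (adjusted p = 2.02e-26 by edgeR). Intracellular immune receptors of the NBS-LRR class were represented by AT5G47260, with 4.44, 4.15 and 2.98 CPM in atchz1ab arp6, and by AT3G51570, with 2.22, 1.82 and 1.63 CPM. Both had no count in atchz1ab, and were at least 34.4-fold and 16.8-fold higher in atchz1ab arp6 (adjusted p = 1.35e-15 and 1.22e-09). The fourth, AT5G59680, encodes a receptor-like kinase with leucine-rich repeats and had 1.73, 2.08 and 1.76 CPM in atchz1ab arp6, against 0, 0.223 and 0 in atchz1ab.

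F-box proteins select targets for ubiquitination, and all 5 genes of that role, or of ubiquitin removal, were called higher. AT1G27580 had 4.93, 5.97 and 4.34 CPM in atchz1ab arp6 and 3.47, 3.77 and 3.24 in arp6, and no count in atchz1ab or Col-0. It was at least 45.1-fold higher in atchz1ab arp6 than in atchz1ab (adjusted p = 4.12e-19 by edgeR). A copy of it, AT1G27540, is 97.5% identical over 1154 bases and averaged 19.2 CPM in atchz1ab arp6, 22.4 in arp6, 19.5 in atchz1ab and 16.2 in Col-0, so how reads were shared between them is uncertain. AT5G44220 had 1.73, 3.11 and 1.49 CPM in atchz1ab arp6 and was at least 18.7-fold higher than in atchz1ab (adjusted p = 8.39e-10).

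Genes of metabolism and the cell wall numbered 9, of which 7 were called higher in atchz1ab arp6 against atchz1ab, 1 was not called and AT1G18020 was not tested. AT5G66150, a glycosyl hydrolase of family 38, the family of alpha-mannosidases, had 6.41, 7.40 and 7.46 CPM in atchz1ab arp6 and 2.48, 2.51 and 3.24 in arp6, against 0, 0.112 and 0 in atchz1ab. Its ratio over the single count of atchz1ab was 188, with a 95% counting interval from 33.3 to 7468 (adjusted p = 2.20e-22 by edgeR). HSD6 (AT5G50770), a hydroxysteroid dehydrogenase, had 11.3, 12.1 and 11.4 CPM in atchz1ab arp6 and 8.52, 9.49 and 9.28 in arp6, against 0.378, 0.107 and 0 in Col-0. The remaining called genes included PDC3 (AT5G01330), a pyruvate decarboxylase of ethanolic fermentation.

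Among regulators, AGO9 (AT5G21150) encodes an Argonaute, a protein that binds small RNAs, and is known from ovules. It had 10.5, 9.99 and 9.22 CPM in atchz1ab arp6 and 9.42, 7.68 and 9.84 in arp6. In the remaining lines it had 1.86, 3.50 and 2.997 CPM in atchz1ab hta9hta11, 2.14, 2.64 and 2.37 in hta9hta11, 0.781, 0.893 and 0.578 in atchz1ab and 0.126, 0.322 and 0.256 in Col-0. Among the libraries that did not choose the genes, AGO9 stood high in atchz1ab arp6, lower in the hta9hta11 lines and lower again in atchz1ab, with no overlap between these levels. AGO9 was called higher in atchz1ab arp6 against atchz1ab, as was AT2G41470, annotated as a MADS-box protein, while the B3-domain gene AT5G32460 was not called. Its values were 0.493, 1.95 and 0.678 CPM in atchz1ab arp6, against 0.892, 0.335 and 0.347 in atchz1ab (adjusted p = 0.119 by edgeR, 0.0475 without replicate 1 of atchz1ab arp6 and 0.0446 without replicate 1 of atchz1ab). Among genes with other annotated products 9 of 12 were called higher, and among genes with no product of known function 7 of 9. Both noncoding RNAs were called higher, but the call of the snoRNA AT1G03506 was lost without replicate 2 of atchz1ab arp6 or any of atchz1ab and with a replicate block, no filter on low counts or DESeq2 (adjusted p up to 0.473 over all fits). The call of AT3G59270 was lost without replicate 1 of atchz1ab arp6 or 2 or 3 of atchz1ab and with DESeq2 (up to 0.264). AT1G03506 had 0.740, 2.21 and 0.949 CPM in atchz1ab arp6, against 0.558, 0.447 and 0.693 in atchz1ab.

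Whether the same genes were transcribed when the H2A.Z genes HTA9 and HTA11 were mutated was asked by atchz1ab hta9hta11 against atchz1ab. The amount of H2A.Z itself was not measured in these RNA data. There 6 of the 55 genes were called higher, 2 lower and 46 were not called, by the same test. Over all genes tested, 5.46% were called higher and 5.16% lower. Of the 54 tested, 18 were at or under 3 counts in both lines. AGO9 was higher by 1.84 ± 0.35 (SE) on the log2 scale (adjusted p = 2.80e-05 by edgeR). HSD6 had 1.77, 1.24 and 2.42 CPM in atchz1ab hta9hta11, against 0.669, 0.335 and 0.809 in atchz1ab, a log2 fold change of 1.55 ± 0.41 (adjusted p = 0.00417). PDC3 had 0.652, 1.02 and 1.04 CPM in atchz1ab hta9hta11, against 0.446, 0.112 and 0.116 in atchz1ab, a log2 fold change of 1.90 ± 0.63 (adjusted p = 0.0343). These 3 genes stood between atchz1ab and atchz1ab arp6 in level.

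AT1G27580 had 0.465, 0.451 and 0.461 CPM in atchz1ab hta9hta11 and was at least 4.07-fold higher than its 0 counts in atchz1ab (adjusted p = 0.00408 by edgeR). AT2G33420, a gene with a domain of unknown function, had 0.186, 0.790 and 1.04 CPM in atchz1ab hta9hta11, against 0, 0 and 0.116 in atchz1ab, a ratio of 16.9 with a 95% counting interval from 2.67 to 705 (adjusted p = 0.00807). AT5G66150 had 0.372, 0.677 and 0.461 CPM in atchz1ab hta9hta11, a ratio of 13.2 over the 1 count of atchz1ab, with an interval from 2.001 to 556 (adjusted p = 0.0182). All 3 remained below 2 CPM. The 2 genes called lower were AT5G15360 and MRD1. AT5G15360, of no annotated function, had 0, 0 and 0 CPM in atchz1ab hta9hta11, against 1.78, 0.558 and 1.502 in atchz1ab, at least 12.1-fold lower (adjusted p = 3.06e-08). It had 19.5, 19.2 and 19.8 CPM in atchz1ab arp6, 0, 0 and 0 in hta9hta11 and 0.126, 0 and 0 in Col-0. Within the atchz1ab background the line without ARP6 was thus high and the line with hta9-1 and hta11-2 was at 0. Col-0, with 1 count, was also near 0, so the line apart from these low levels was atchz1ab. MRD1 had 0 counts in atchz1ab hta9hta11 and 6 in atchz1ab (adjusted p = 0.0346). The calls of MRD1, PDC3, HSD6, AT2G33420 and AT5G66150 were each lost in at least 2 fits without a library, with adjusted p up to 0.259, 0.157, 0.0555, 0.0728 and 0.0921 over all fits. Without replicate 3 of atchz1ab, or without replicate 3 of atchz1ab hta9hta11, 5 of the 55 were called. MRD1 lost its call without replicate 3 of atchz1ab or any of atchz1ab hta9hta11, and PDC3 without replicate 2 or 3 of either line. HSD6 lost it without replicate 2 of atchz1ab or 3 of atchz1ab hta9hta11, and AT2G33420 without replicate 1 or 2 of atchz1ab or 3 of atchz1ab hta9hta11. AT5G66150 lost it without replicate 1 or 3 of atchz1ab or 2 of atchz1ab hta9hta11. With DESeq2 the calls of MRD1, PDC3 and AT5G66150 were also lost.

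Set directly against each other, atchz1ab arp6 and atchz1ab hta9hta11 differed in most of the genes. In atchz1ab arp6 against atchz1ab hta9hta11, 42 of the 55 were called higher, 0 lower and 12 were not called, where 19.8% of all genes tested were called higher and 19.6% lower. Of the 42, 41 had all 3 atchz1ab arp6 libraries above all 3 of atchz1ab hta9hta11, and the exception was AT3G50940. The median log2 fold change of the 54 tested was 3.29, and 3.06 with genes of 3 counts or fewer at their bound or ratio, against -0.0035 over all genes tested. Genes at or near 0 in atchz1ab hta9hta11 likewise passed the filter only through lines where they were high. These counts and this median thus describe the genes that passed and are no independent support. In atchz1ab hta9hta11 against hta9hta11, 0 of the 55 were called higher and 0 lower by edgeR, 10 had an unadjusted p under 0.05, and DESeq2 also called 0. Over all genes tested, 0.793% were called higher and 0.952% lower, and 23 of the 54 were at or under 3 counts in both lines, so the 0 is not read as a result about these genes.

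Of the 55 genes, 7 had a mean below 0.3 CPM in atchz1ab arp6, although their means in arp6 were above 2 CPM. These are described without a test, since the arp6 libraries chose the genes. Of 16625 nuclear genes above 2 CPM in arp6, 9 were below 0.3 CPM in atchz1ab arp6 (0.0541%), and 7 of these 9 are among the 55. The retrotransposon EVD (EVADE, AT5G17125), a Copia element that DNA methylation keeps silent in wild-type plants, had 0.123, 0.130 and 0 CPM in atchz1ab arp6, against 8.03, 6.28 and 6.15 in arp6. It had 0.112, 0.223 and 0.116 CPM in atchz1ab and no count in atchz1ab hta9hta11, hta9hta11 or Col-0. Only the 3 arp6 libraries were high. A copy on chromosome 1, AT1G34967, is 99.5% identical to EVD over 4227 bases and averaged 0.927 CPM in arp6 and 0 in the 5 other genotypes, so how reads were divided between the 2 copies is uncertain.

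The pseudogene AT5G34851 had 0.247, 0 and 0.271 CPM in atchz1ab arp6, against 10.2, 12.4 and 11.5 in arp6. AT1G22120, of no annotated function, had 0, 0 and 0 CPM in atchz1ab arp6, against 6.24, 6.84 and 5.71 in arp6. AT5G24240, annotated as a phosphatidylinositol 4-kinase gamma-like protein, had 0.123, 0.389 and 0.271 CPM in atchz1ab arp6, against 3.67, 5.30 and 4.14 in arp6. In each of these the arp6 libraries all lay above the atchz1ab arp6 libraries. The uncharacterized AT5G35375 had 0, 0 and 0 CPM in atchz1ab arp6, against 3.07, 3.07 and 4.59 in arp6, and the pseudogene AT5G35555 had 0, 0 and 0, against 4.46, 1.40 and 5.15. The last, AT1G18020, rests on single libraries: it had 0.370, 0.260 and 0.136 CPM in atchz1ab arp6 and 0.297, 0.140 and 8.95 in arp6, and 0, 0.335 and 15.4 in atchz1ab. It encodes an FMN-linked oxidoreductase and has a copy, AT1G17990, that is 100% identical over 2000 bases, and the filter on low counts left it out of the tests. Of the 9, the 2 outside the 55 were AT1G44770, at 0.0885 CPM in atchz1ab arp6 and 41.6 in arp6, and the kinase gene WNK9, at 0 CPM in atchz1ab arp6 and 3.49 in arp6. AT1G44770 was also at 0 in atchz1ab hta9hta11 and atchz1ab, and at 37.7 CPM in hta9hta11 and 37.6 in Col-0.

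**Figure D4:**
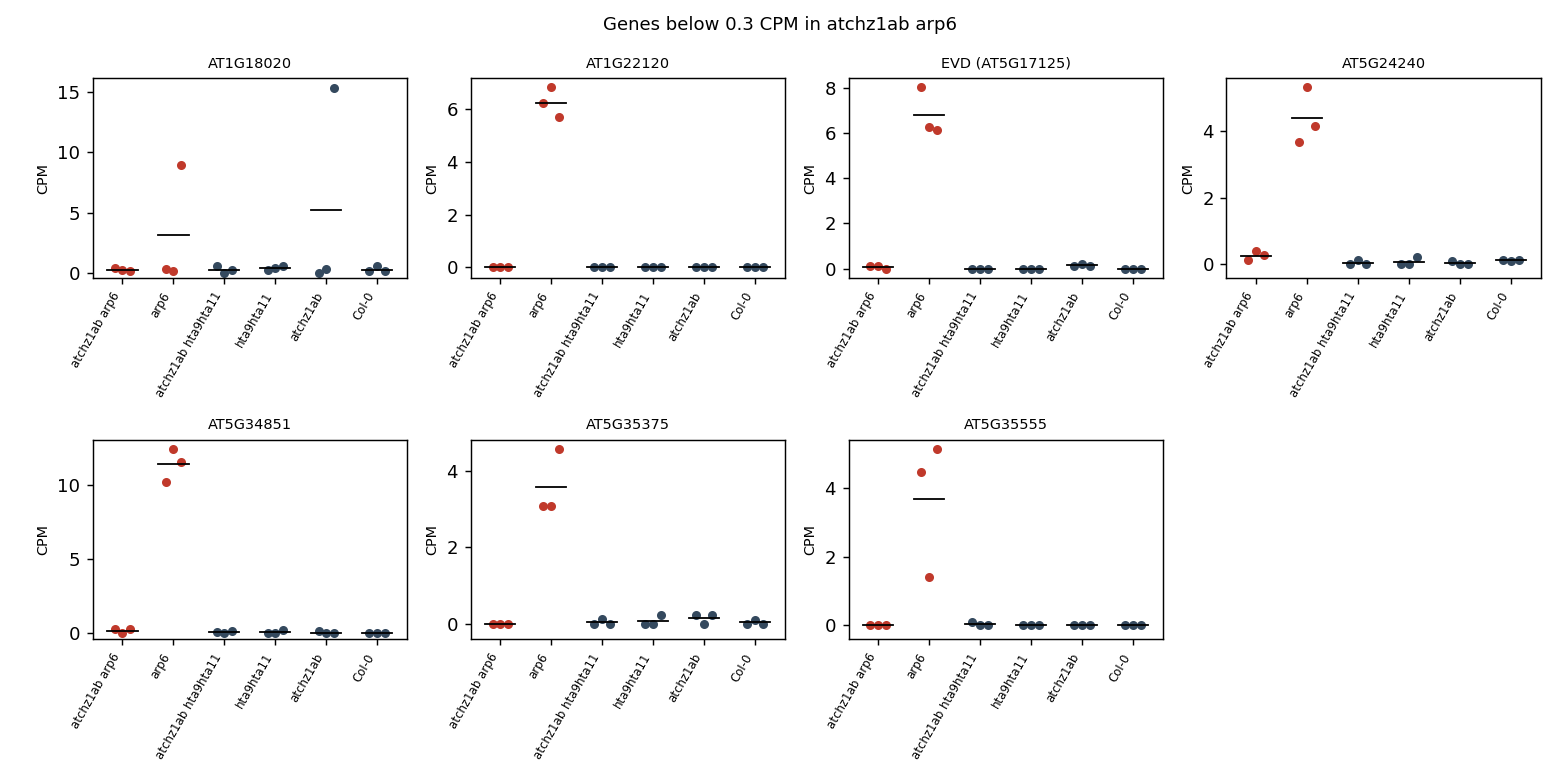
CPM of the 7 genes below 0.3 CPM in atchz1ab arp6, with 1 point per library, red for lines with arp6-1 and dark for the others, and a bar at the mean of each genotype. In 6 of the panels the 3 arp6 libraries stand alone above the rest, and in AT1G18020 1 arp6 and 1 atchz1ab library do.

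In the tests, 6 of these 7 were among the 10 genes not called in atchz1ab arp6 against atchz1ab. EVD had a log2 fold change of -0.65 ± 1.19 (SE) there (adjusted p = 0.691 by edgeR). AT5G24240 had an adjusted p of 0.102, AT5G34851 of 0.235 and AT5G35375 of 0.113, and AT1G22120 and AT5G35555 had no count in either line. Beside AT5G32460, the other genes not called were AT2G20870, AT4G36700 and AT5G28340. AT2G20870, a cell wall protein precursor, had 1.11, 0.519 and 1.08 CPM in atchz1ab arp6, against 0.669, 0.782 and 0.809 in atchz1ab, and AT4G36700, a cupin, had 1.36, 1.56 and 2.17, against 1.23, 1.01 and 1.04. AT5G28340, a tetratricopeptide repeat protein, had 0.370, 2.21 and 0 CPM in atchz1ab arp6, against 0.112, 3.57 and 0.116 in atchz1ab, where 1 library stood apart (adjusted p = 0.535). Without replicate 2 of atchz1ab arp6 its log2 fold change was -2.57 (adjusted p = 0.0186 by edgeR), and without replicate 2 of atchz1ab it was 2.84 (adjusted p = 0.0199). It has a copy, AT5G28380, that is 99.9% identical over 3043 bases.

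Across the 55 genes, the 3 atchz1ab arp6 libraries lay above all 3 arp6 libraries in 6, below all 3 in 22 and overlapped them in 27. The mean in atchz1ab arp6 was within 2-fold of that in arp6 in 38. The arp6 values chose the genes, so this is a description and nothing is read from the side on which more genes fell. Among the 6 that were above, AT3G28500, which encodes a 60S acidic ribosomal protein, had 10.5, 10.5 and 11.4 CPM in atchz1ab arp6, against 2.97, 1.68 and 2.24 in arp6, a ratio of 4.70. AT5G66150 had a ratio of 2.58. The other 4 were AT1G27580, AT2G21260, SADHU6-1 and HSD6, with ratios from 1.22 to 1.47.

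The same thresholds were applied to libraries that did not choose the genes. On in atchz1ab arp6 and off in atchz1ab were 38 nuclear genes (0.114%), of which 21 are among the 55: 38.2% of the 55 and 55.3% of the 38. The 17 others included AGO5 (AT2G27880), another Argonaute, which averaged 37.8 CPM in atchz1ab arp6 and 53.1 in arp6, against 0.0744 in atchz1ab. AGO5 stayed outside the 55 because its mean in Col-0 was 0.439 CPM. The cysteine-rich receptor-like kinase gene CRK23 was at 7.40 CPM in atchz1ab arp6, against 0.187 in atchz1ab, and 0.326 in Col-0. The transporter gene ABCA9 was at 13.3 CPM in atchz1ab arp6, against 1.94 in arp6 and 0.0744 in atchz1ab. At the edges of the rule, AT3G59270 (2.01 CPM) and AT2G05980 (2.02) were just inside the arp6 threshold, and PHE1 (1.95) and ABCA9 (1.94) just outside it. AT4G27570 (0.284 CPM) and AT3G32925 (0.271) were just inside the Col-0 threshold, and AT2G14230 (0.314) and DL1D (0.324) just outside it.

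Position and gene type were not used to choose the genes, apart from the nuclear identifier. The annotation gave 42 protein-coding genes, 11 pseudogenes, 1 long noncoding RNA and 1 snoRNA. Pseudogenes were 20% of the 55, against 14.7% of all 32835 annotated nuclear genes of the table and 35.2% of the 13025 below 0.3 CPM in Col-0. These shares were not tested against each other. Chromosome 5 held 22 of the 55 (40%), against 22.5% of all genes and 21.3% of those low in Col-0. Chromosomes 1 to 4 held 9, 11, 11 and 2. Of the 7 genes low in atchz1ab arp6, 5 were on chromosome 5. A stretch of chromosome 5 of 1.19 Mb, bounded after its values were seen by AT5G34851 and AT5G36240, held 5 of the 55 among 270 genes of the table. Of these 270, 207 were below 0.3 CPM in Col-0. Over all 32835 annotated nuclear genes there were 55, and 13025 were below 0.3 CPM in Col-0. The 3 pseudogenes and 2 coding genes there had a mean of 0 to 1.85 CPM in atchz1ab arp6, against 2.46 to 11.4 in arp6. The stretch was picked for its low levels in atchz1ab arp6, so this difference follows from the choice.

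No gene lay next to another of the 55 in gene order. The closest pair, AT2G05914 and AT2G05980, was 49259 bases apart with 8 genes between them. AT3G32925 lay 0.607 Mb from ARP6, the only one within 1 Mb, and all of its 1652 bases lie within AT3G32920 on the same strand, which averaged 1.39 CPM in atchz1ab arp6 and 1.00 in arp6, against 0.412 in atchz1ab and 0.120 in Col-0. Segments linked to the arp6-1 allele and loss of ARP6 cannot be told apart there. The gene upstream on the same strand was in the table for 49 of the 55 and tested for 33. Of these, 12 (36.4%) were called higher and 7 lower in atchz1ab arp6 against atchz1ab. Over all genes tested, 22.2% were called higher and 22.6% lower, and the shares were not tested against each other. Of the 12, 3 were higher by at least 2-fold, and the median log2 fold change of the 33 was 0.046. Copies elsewhere in the genome, of at least 80% identity over 300 bases, existed for 23 of 54 genes (42.6%), against 31.5% of all genes and 51.2% of those low in Col-0, and 9 genes had a copy of at least 95% identity.

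Of 7 motifs searched on both strands of the 250 bases upstream, TATAAA, the core of the TATA box, was in 28 of the 55 (50.9%), against 45.8% of all genes. TTGACC, a form of the W-box that WRKY factors bind, was in 11 (20%), against 11.7% of all genes and 11.2% of those low in Col-0. SADHU6-1 and AT3G62475, printed above, are among those 11. CACGTG, AAAATATCT, GAANNTTC, AAACCCTAA and the pair CTT and AAG with 7 bases between were in 2, 1, 5, 1 and 6 of the 55, and in 5.83%, 2.22%, 9.29%, 2.80% and 9.44% of all genes. No overlap between motifs was removed.

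Lists of known genes were set beside the 55, and 1 gene, EVD, was in both. EVD stands in the list of 6 targets of DNA methylation silencing. Of the others, QQS (AT3G30720) fell by 5.40 on the log2 scale in atchz1ab arp6 against atchz1ab (adjusted p = 6.16e-10 by edgeR), and SDC, FWA, ATMU1 and ATGP1 had at most 4 counts over the 3 libraries of any genotype. In the floral identity and flowering list, 7 of 14 tested genes were called higher and 3 lower in that comparison, where 22.2% of all genes tested were called higher and 22.6% lower, with SEP3, a floral MADS-box gene, higher by 3.95. The list summed to 294 to 300 CPM in atchz1ab arp6 and 248 to 270 in arp6, against 214 to 223 in atchz1ab and 200 to 204 in Col-0. Among its floral identity genes, AP1, LFY, SEP1, SEP3, AP3 and CAL each had a higher mean in atchz1ab arp6 and in arp6 than in atchz1ab and Col-0. Of these, SEP1 and SEP3 were called higher in atchz1ab arp6 against atchz1ab and AP1 was not called (adjusted p = 0.149 by edgeR). LFY, AP3 and CAL did not pass the filter on low counts and were not tested. AP1 was at 1.64 CPM in atchz1ab arp6 and 1.70 in arp6, against 1.02 in atchz1ab and 0.240 in Col-0. LFY was at 1.22 CPM in atchz1ab arp6 and 0.736 in arp6, against 0.595 in atchz1ab and 0.198 in Col-0. SEP1 was at 6.82 CPM in atchz1ab arp6 and 7.23 in arp6, against 1.96 in atchz1ab and 1.46 in Col-0. SEP4 went the other way, at 1.45 CPM in atchz1ab arp6 and 1.17 in arp6, against 16.6 in atchz1ab and 14.9 in Col-0. Its log2 fold change was -3.46 in atchz1ab arp6 against atchz1ab (adjusted p = 5.03e-31 by edgeR). AG was at 0.0885 CPM in atchz1ab arp6 and 0.488 in arp6, against 0.0385 in atchz1ab and 0.227 in Col-0. SHP1 was at 0.475 CPM in atchz1ab arp6 and 0.224 in arp6, against 0.376 in atchz1ab and 0.468 in Col-0. SHP2 was at 0.0822 CPM in atchz1ab arp6 and 0.234 in arp6, against 0.150 in atchz1ab and 0.107 in Col-0. The 3 genes called lower were SEP4, AGL24 and SVP. STK and AGL72 had no count in any library, and SUP and WUS had at most 3 counts over the 3 libraries of a genotype. The part of flower tissue in the levels of the 55 was not tested. The anther and pollen list summed to 5.43 to 7.86 CPM in atchz1ab arp6 and 6.84 to 6.94 in arp6, against 5.20 to 10.5 in atchz1ab and 5.91 to 7.17 in Col-0, with 0 of 2 tested genes called. Of its 20 genes 14 were at 0 in arp6 and 15 in Col-0, among them DYT1, MYB80, DUO1 and VGD1 in both.

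The seed and endosperm list had 2 of 12 tested genes higher and 4 lower, and summed to 11.4 to 13.8 CPM in atchz1ab arp6 and 20.5 to 22.4 in arp6, against 34.8 to 37.3 in atchz1ab and 15.4 to 20.9 in Col-0. Beside the same 22.2% and 22.6% of all genes, the counts were 1 higher and 0 lower of 7 for meiosis, 0 and 0 of 3 for triterpene gene clusters, 0 and 0 of 3 for root, 2 and 2 of 11 for DNA damage response, and 8 and 1 of 12 for salicylic acid and immunity. The last list summed to 409 to 428 CPM in atchz1ab arp6 and 402 to 432 in arp6, against 360 to 377 in atchz1ab and 402 to 424 in Col-0.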

How the data were processed

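RNA from whole seedlings was sequenced in 18 libraries, 3 for each of 6 genotypes. Per the submitters' processing notes, the tools were cutadapt, HISAT2, SAMtools and featureCounts on the build TAIR10, with no versions or settings given in the sources used here. The values the authors deposited are whole-number counts per gene, with no normalization. CPM were computed from library totals. The test was edgeR 4.0.16 in R 4.3.3 (quasi-likelihood, TMM scaling, filterByExpr, all 18 libraries in 1 fit with genotype as the factor and 12 residual degrees of freedom), with p-values adjusted after Benjamini and Hochberg over 18906 genes and a threshold of 0.05. DESeq2 1.42.0 was an alternative, and the edgeR step was tested on simulated data. The common biological coefficient of variation was 3.08%. Replicates differed by more than sampling noise in all 18 pairs (1.43 to 1.69 units of chi-square per degree of freedom), and none was counted as a copy.

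Role groups follow the RefSeq product names. The genes and lists were chosen with earlier results of these data known. Only the 4 comparisons among the 12 libraries that did not choose the genes were tested. Genes named are the 15 of largest fold and those not called in atchz1ab arp6 against atchz1ab, the 8 called in atchz1ab hta9hta11 against atchz1ab, list members and genes at the thresholds. Other genes, such as AGO5, CRK23, AT3G28500, AT1G03506 and AT5G59680, were named after their values were seen. A fold against 0 counts is a bound against 3 counts over the group, and fold changes with 1 to 3 counts carry a 95% counting interval. Both cover counting error only. An SE printed with a log2 fold change is its absolute value divided by the square root of the test's F statistic. RefSeq TAIR10.1 matched 32835 of 33323 nuclear identifiers and all 55 genes. Copies were sought with BLAST 2.17.0.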

Additional observations from a re-analysis of the deposited data

How the results depend on the processing

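The number of genes was 25 with thresholds of 4 and 0.3 CPM, 121 with 1 and 0.3 CPM, 81 with 2 and 0.5 CPM, 30 with every library past the threshold and 59 with TMM scaling, and ran from 53 to 60 when 1 library was left out. In atchz1ab arp6 against atchz1ab, 37 to 44 of the 55 were called under the other settings and 42 to 45 with 1 library left out. In atchz1ab arp6 against atchz1ab hta9hta11 these were 37 to 42 and 38 to 42. In atchz1ab hta9hta11 against atchz1ab, DESeq2 called 5 of the 55 and 1319 genes in all, against 8 and 2007 by edgeR, and 5 to 9 of the 55 with 1 library left out. In atchz1ab hta9hta11 against hta9hta11, 1 of the 55, AT5G28340, was called with no filter on low counts, DESeq2 called 197 genes in all against 330 by edgeR, and 219 to 249 were called with 1 library left out. The causes of these differences were not tested. AT5G28340 changed sign in atchz1ab arp6 against atchz1ab, where its log2 fold change was -0.49, and ran from -2.57 to 2.84 with 1 library left out (adjusted p = 0.0199 by edgeR for 2.84, without the atchz1ab library that stood apart, and 0.535 with all libraries). A tally took the 15 genes of largest fold and those not called in atchz1ab arp6 against atchz1ab. It also took the 8 called in atchz1ab hta9hta11 against atchz1ab. Of its values under the other settings, 312 kept their direction and side of the threshold, 2 changed sign, 19 lost the call and 3 gained one. Other genes named in the text, such as AT1G03506 and AT3G59270 with the lost calls given above, are outside this tally.

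Same-numbered libraries did not deviate together (correlations from -0.03 to 0.03), so the numbers do not pair them. With a replicate block, 43 of the 55 were called in atchz1ab arp6 against atchz1ab, 8 in atchz1ab hta9hta11 against atchz1ab, 42 in atchz1ab arp6 against atchz1ab hta9hta11 and 0 in atchz1ab hta9hta11 against hta9hta11. Groups of 3 libraries, counts near 0 in the silent state and unknown strand handling limit precision. The floor of 3 counts over a group was a setting for the bounds on folds, and the smallest detectable difference was not measured.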
